A study of Mus musculus with 6 samples.

Results

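The genes of MHC class I antigen presentation examined here were the heavy chain genes H2-K1, H2-D1, H2-Bl and H2-T23, the light chain gene B2m, the peptide loading genes Tap1, Tap2 and Tapbp, and the immunoproteasome genes Psmb8 and Psmb9. They were chosen by gene symbol, with the difference between HDAC2 KO and control already known, so that difference is described below and not tested for them. Of 45037 probe sets on the array, 32 listed at least 1 of the 10 genes, 26 of them with a single gene symbol and 6 with several. H2-T23 appeared only on probe sets with several symbols, which left 9 of the 10 genes with a probe set of their own. The whole array covered 18193 genes by probe sets with a single symbol.

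Colon RNA came from 3 control samples and from 3 samples of mice in which floxed Hdac2, the gene of the histone deacetylase HDAC2, was deleted by a Cre recombinase driven by the villin promoter, which acts in intestinal epithelial cells and spares other cell types. All mice had a background mixed from CD-1, 129 and C57BL/6 and were untreated. Neither the ages of the mice, nor whether the controls carried the floxed alleles or the Cre transgene, nor the MHC haplotype of any sample is given in the sources used here. Each sample was measured on a one-colour Affymetrix mouse array, and the values are RMA signals on the log2 scale, on which a difference of 1 is a doubling.

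Class I molecules are built from a polymorphic heavy chain and the invariant light chain beta-2-microglobulin, and they show peptides from inside the cell to CD8 T cells. The peptides are cut by the proteasome, whose interferon-inducible form contains the subunits encoded by Psmb8 and Psmb9, carried into the endoplasmic reticulum by the TAP1 and TAP2 transporter, and loaded with the help of tapasin, the product of Tapbp. The classical heavy chains, K and D, are among the most allele-rich genes of the mouse, and intestinal epithelial cells as well as leukocytes carry them. A probe on an expression array is fixed in sequence, so its signal depends on how well it matches the allele in the sample as well as on the amount of RNA.

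The arrays, across all probe sets, correlated with r between 0.997 and 0.999 within a group and between 0.996 and 0.997 across groups. The Hdac2 probe set of highest signal (1445684_s_at) read 10.40 ± 0.031 (SD, n = 3) in control and 10.19 ± 0.058 in HDAC2 KO. It was lower on all 3 HDAC2 KO arrays but was not called (difference -0.21, SE 0.051, limma adjusted p = 0.0768), and the labels do not say whether its probes lie in the deleted part. One label field of the HDAC2 KO samples also names HDAC1, whose gene read 10.31 in control and 10.47 in HDAC2 KO on 1448246_at. Every array gave signal for Xist, which is transcribed in females, and for the Y-linked gene Eif2s3y. The Xist probe set 1436936_s_at read 11.99 to 12.04 in control and 11.52 to 11.56 in HDAC2 KO, and was called lower (limma adjusted p = 0.00137). The Eif2s3y probe set 1417210_at read 7.48 to 7.56 and 7.89 to 8.32, and was called higher (limma adjusted p = 0.0200). Sex-linked signal thus differed between the groups, and the part of sex in the values below was not tested. The source field of the labels names 1 numbered mouse per array, while the titles speak of mice. Xist and Y-linked signal together on every array is not what RNA of 1 male or 1 female mouse gives. So n = 3 below counts arrays and is not taken to count single mice. The p-values and SDs below measure the spread between arrays, and how many mice an array held was not tested. Colon epithelium was well represented: all 14 epithelial markers, among them Epcam, Cdh1 and Vil1, lay above the 40th percentile of signal, with a mean of 13.1 on each control array and 13.2 to 13.3 on the HDAC2 KO arrays. Markers of leukocytes, fat, vessels and smooth muscle were measured too, so the samples were not epithelium alone. The labels name epithelium in one field and RNA of the colon in another.

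The heavy chain promoters are shown because these genes moved most among the members, and those of B2m and Tap1 because their products pair with the heavy chain and supply its peptides. Given are the 250 bases upstream of the annotated start, 5′ to 3′, from RefSeq on GRCm38.p6, with matches to the interferon-stimulated response element core (GAANNGAAA, either strand) and to the NF-kB site in capitals. H2-K1 lies at chr17:34000348-34000597 on the minus strand (the first of the starts listed), H2-D1 at chr17:35262844-35263093 on the plus strand, B2m at chr2:122147437-122147686 on the plus strand and Tap1 at chr17:34187306-34187555 on the plus strand.
H2-K1: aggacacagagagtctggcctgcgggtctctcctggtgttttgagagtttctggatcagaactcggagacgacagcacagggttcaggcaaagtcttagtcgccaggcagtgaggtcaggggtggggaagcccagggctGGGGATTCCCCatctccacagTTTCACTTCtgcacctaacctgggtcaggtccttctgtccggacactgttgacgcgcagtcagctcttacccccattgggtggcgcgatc
H2-D1: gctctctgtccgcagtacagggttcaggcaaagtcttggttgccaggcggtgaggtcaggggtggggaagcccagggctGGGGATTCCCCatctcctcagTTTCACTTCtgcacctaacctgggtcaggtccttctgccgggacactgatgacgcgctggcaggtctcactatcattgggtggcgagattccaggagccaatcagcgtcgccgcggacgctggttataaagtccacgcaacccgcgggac
B2m: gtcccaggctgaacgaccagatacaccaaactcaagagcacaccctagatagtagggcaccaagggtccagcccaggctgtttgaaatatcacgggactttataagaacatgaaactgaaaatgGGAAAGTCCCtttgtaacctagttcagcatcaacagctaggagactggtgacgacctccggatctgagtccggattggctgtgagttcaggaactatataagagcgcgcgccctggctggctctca
Tap1: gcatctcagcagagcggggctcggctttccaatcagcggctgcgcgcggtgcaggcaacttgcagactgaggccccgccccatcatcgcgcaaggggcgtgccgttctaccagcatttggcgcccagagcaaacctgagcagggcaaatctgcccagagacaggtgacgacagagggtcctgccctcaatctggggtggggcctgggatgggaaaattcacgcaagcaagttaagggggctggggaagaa
The windows of H2-K1 and H2-D1 held the same pair of overlapping NF-kB matches, beginning with GGGGATTCCC, followed by the same interferon element, which stands on the opposite strand as TTTCACTTC. The NF-kB matches lie inside a run of 47 bases that both windows share letter for letter, and the interferon element lies just beyond its end. B2m had a different NF-kB match, GGAAAGTCCC, and no match to the interferon core as searched, with 2 bases between GAA and GAAA. Shortly before its NF-kB match the B2m window holds gaaactgaaa, with 3 bases between them, which that search passes over. The window of H2-T23, not printed here, holds the same spacing on the opposite strand, as tttctctttc. Tap1 matched neither the NF-kB site nor the interferon core. Of its 250 bases, 225 are also the upstream window of Psmb9, which is read in the other direction. Of all 32851 promoters in the table, 6.31% held the interferon core as searched and 3.90% the NF-kB site. Of the 8 member genes present, 2 and 3 did, and the first count leaves out the wider spacing seen in B2m and H2-T23. CCAAT boxes, which NF-Y binds, were in 7 of the 8 and in 33.8% of all promoters. The core of the cyclic AMP response element, TGACG, was in 5 of the 8 and in 17.8%. The gamma-activated sequence TTCNNNGAA was in Psmb8 alone among the 8 and in 7.02% of all promoters. The CCAAT box and the TGACG site, like the gamma-activated sequence, were searched on both strands in these windows, and none of the matches says that a factor binds there.

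The heavy chain genes differed between the groups by large amounts and in both directions, while the light chain, transporter, tapasin and immunoproteasome genes lay close together. Over the 26 probe sets with a single symbol, limma fitted to all probe sets called 13 at a Benjamini-Hochberg adjusted p under 0.05, 7 higher and 6 lower in HDAC2 KO. Across all probe sets 3.8% were called, 1.72% higher and 2.08% lower, a background from which nothing is read here because this contrast chose the members. Of the 14 heavy chain probe sets 12 were called, 6 in each direction, and of the 12 other probe sets 1 was. The median size of the difference was 0.89 over the heavy chain probe sets and 0.061 over the other 12, beside 0.069 over the whole array. The control and HDAC2 KO arrays did not overlap for 17 of the 26 probe sets (8 higher and 9 lower), and for 23.2% of all probe sets. Filtering at the 40th percentile of signal, 5.59, would have kept 22 of the 26. Leaving out control replicate 1, 2 or 3 or HDAC2 KO replicate 1 gave 4 higher calls instead of 7, and the count of lower calls was then 6.

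**Figure D1:**
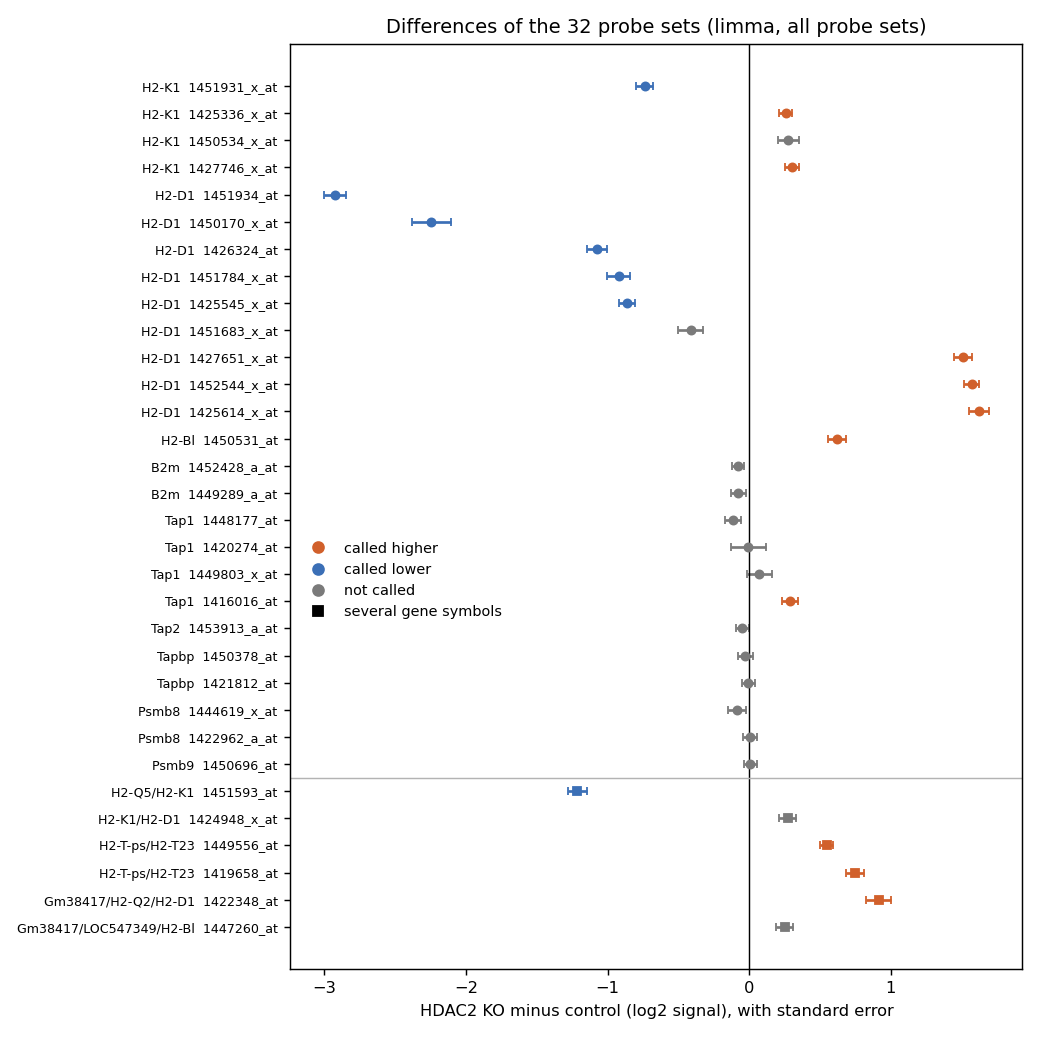
Difference between HDAC2 KO and control in log2 signal, with its standard error, for each of the 32 probe sets that list a member gene; squares below the grey line are probe sets with several gene symbols. The H2-D1 probe sets run from -2.92 to 1.62, whereas those of B2m, Tap2, Tapbp, Psmb8 and Psmb9 lie near 0.

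H2-D1, which encodes the heavy chain of the D molecule, had 9 probe sets, of which 3 were called higher, 5 lower and 1 was not called. The largest difference was on probe set 1451934_at, which gave 6.97, 6.93 and 6.92 in control and 4.02, 4.16 and 3.85 in HDAC2 KO. Probe set 1450170_x_at gave 8.38, 8.22 and 8.14 in control against 6.12, 5.68 and 6.21 in HDAC2 KO. Both sets of HDAC2 KO values stood far below every control value, with differences of -2.92 (SE 0.080), or 7.59-fold, and -2.24 (SE 0.14), or 4.74-fold. The first may be understated, since its HDAC2 KO values lie below the 40th percentile of signal, 5.59, where low signals can understate a difference. This was not tested. As measured, these ranked 5 and 18 in size among all 45037 probe sets, and HDAC2 KO replicate 2 was the lowest array on the second but the highest of its group on the first.

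The other lower probe sets of H2-D1 differed by smaller amounts. Probe set 1426324_at read 8.80, 9.02 and 8.91 in control and 7.84, 7.76 and 7.91 in HDAC2 KO, a difference of -1.07 (SE 0.071). Probe set 1451784_x_at, of high signal, read 13.41, 13.36 and 13.38 against 12.55, 12.28 and 12.56, a difference of -0.92 (SE 0.079). For 1425545_x_at the control arrays gave 13.43, 13.38 and 13.34 and the HDAC2 KO arrays 12.45, 12.61 and 12.51, a difference of -0.86 (SE 0.057). These 3 stood at 47.6%, 52.8% and 55.1% of control. The ninth, 1451683_x_at, was lower on all HDAC2 KO arrays (11.18, 11.11 and 11.42 against 11.69, 11.55 and 11.70), but its difference of -0.41 (SE 0.089) was not called. It was called in 5 of 14 alternative fits, one of them the fit without HDAC2 KO replicate 3.

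In the other direction went 3 H2-D1 probe sets, by nearly equal amounts. Probe set 1425614_x_at read 9.72, 9.60 and 9.58 in control and 11.27, 11.14 and 11.37 in HDAC2 KO, a difference of 1.62 (SE 0.071). Probe set 1452544_x_at read 10.18, 10.23 and 10.15 against 11.80, 11.78 and 11.68, a difference of 1.57 (SE 0.054). Probe set 1427651_x_at read 9.65, 9.57 and 9.58 against 11.20, 11.01 and 11.13, a difference of 1.51 (SE 0.063). These are mean signals 2.85-fold to 3.08-fold those of control, and every HDAC2 KO array stood above every control array. The 8 called probe sets of H2-D1 were called in the same direction in every alternative fit that included them.

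**Figure D2:**
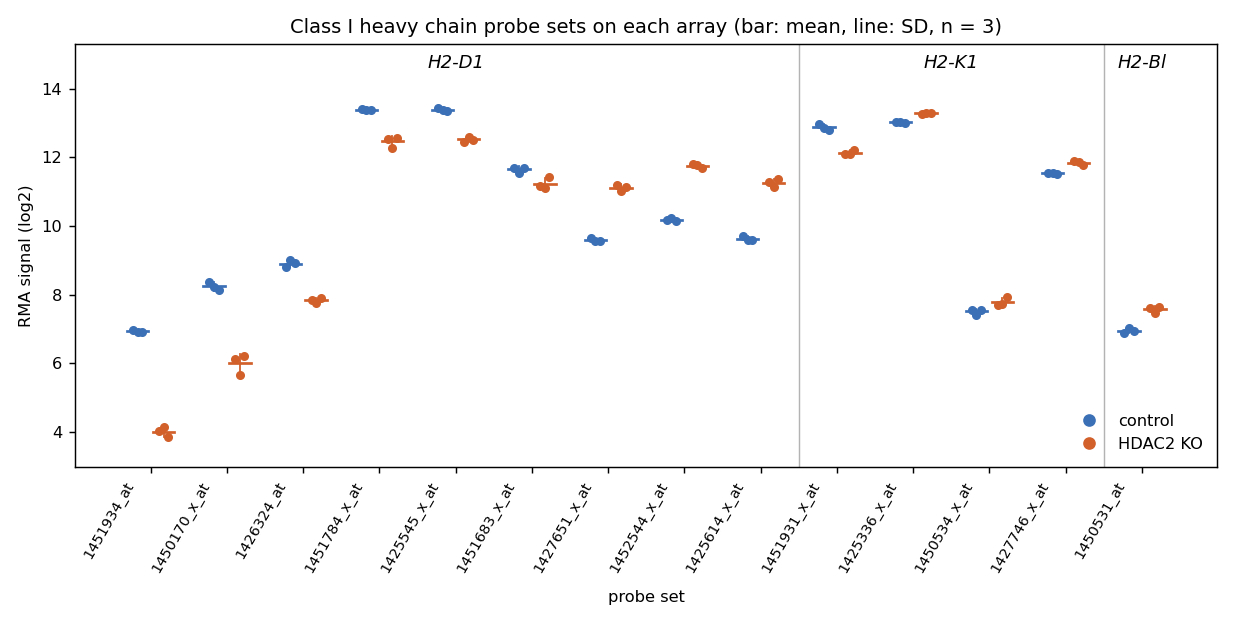
RMA signal (log2) of each H2-D1, H2-K1 and H2-Bl probe set on every array; points are arrays (blue control, orange HDAC2 KO), horizontal bars group means and vertical lines the SD, n = 3 per group. Probe sets of H2-D1 separate the groups in opposite directions: 1451934_at from 6.94 to 4.01, and 1425614_x_at from 9.64 to 11.26.

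H2-K1, which encodes the heavy chain of the K molecule, showed the same kind of split on a smaller scale. Its probe set 1451931_x_at was lower, at 12.97, 12.85 and 12.80 in control and 12.10, 12.09 and 12.21 in HDAC2 KO, a difference of -0.74 (SE 0.063), or 59.9% of the control signal. The brightest, 1425336_x_at, was higher, at 13.02, 13.04 and 13.01 against 13.27, 13.29 and 13.28, a difference of 0.26 (SE 0.043). Probe set 1427746_x_at was higher too, at 11.55, 11.56 and 11.53 against 11.90, 11.87 and 11.78, a difference of 0.30 (SE 0.051). The fourth, 1450534_x_at, read 7.55, 7.42 and 7.57 in control and 7.71, 7.74 and 7.92 in HDAC2 KO, and its difference of 0.28 (SE 0.073) was not called. On all 4 probe sets no array of one group reached into the other. Both calls of higher signal were fragile. That of 1425336_x_at was lost in 5 of 6 leave-one-out fits, all but that without HDAC2 KO replicate 2, with differences of 0.25 to 0.26, and that of 1427746_x_at was lost without control replicate 1, 2 or 3 or HDAC2 KO replicate 1, with leave-one-out differences of 0.28 to 0.34. The lower probe set was called in each of its 14 alternative fits.

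The amount of disagreement within these genes was set beside the rest of the array, as a description, since they were chosen with it in view. Of 9010 genes with at least 2 single-symbol probe sets, H2-D1 had the widest measured gap between its highest and lowest difference. That gap was 4.55, which the low signal of 1451934_at may understate, and H2-K1 ranked 28 with 1.04. Such a gap can only widen with more probe sets, of which H2-D1 had 9 and H2-K1 4. Opposed calls need at least 2 called probe sets in a gene. Probe sets of a gene were called in opposite directions in 4 of the 9010 genes: H2-D1, H2-K1, the class II chaperone subunit gene H2-DMb2, and the zinc transporter gene Slc30a7 on chromosome 3. H2-D1 was among them in every alternative that kept probe sets of the x_at kind, which can bind several related transcripts. H2-K1 was not among them without control replicate 1, 2 or 3 or HDAC2 KO replicate 1. H2-DMb2 was not among them when any single array was left out, or with centring on the array median. Neither was among them with the replicate number as a block, at an adjusted p under 0.01, or without x_at and s_at probe sets. Of the 13 probe sets of H2-D1 and H2-K1, 11 were of the x_at kind. Leaving that kind out left H2-D1 with 1426324_at and 1451934_at, both lower, and H2-K1 with none. The labels name 3 strains of origin, and whether different alleles of H2-D1 and H2-K1 in the groups have a part in the opposed values was not tested, since neither MHC genotypes nor probe sequences were used here.

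A single value per gene depended on how probe sets were combined. The mean over the 9 probe sets of H2-D1 differed by -0.41 and that over the 4 of H2-K1 by 0.025, close to 0. The brightest H2-D1 probe set differed by -0.92 or -0.86, and the brightest of H2-K1 by 0.26. The symbols themselves are not fully separate: the RefSeq table lists H2-D1 as a synonym of H2-K1 and the reverse. It also lists H2-K1 as a synonym of H2-T23, and both H2-D1 and H2-K1 as synonyms of H2-Bl.

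Probe sets listing a member with other genes also moved both ways. Both probe sets shared by H2-T23, whose product Qa-1 presents signal peptides to NK cell receptors, and the pseudogene H2-T-ps were higher. Probe set 1449556_at read 10.66, 10.67 and 10.60 in control and 11.20, 11.20 and 11.18 in HDAC2 KO, a difference of 0.55 (SE 0.047), and 1419658_at, near the low end of the signal, 4.82, 4.97 and 5.03 against 5.67, 5.72 and 5.69, a difference of 0.75 (SE 0.064). The groups stood apart on both, and the calls held in every alternative fit that included them. Probe set 1451593_at of H2-Q5 and H2-K1 was lower, from 8.39 ± 0.032 (SD, n = 3) to 7.18 ± 0.12, whereas 1422348_at of Gm38417, H2-Q2 and H2-D1 was higher, from 6.92 ± 0.11 to 7.84 ± 0.14. The remaining pair, 1424948_x_at of H2-K1 and H2-D1 (0.27, SE 0.062) and 1447260_at of Gm38417, LOC547349 and H2-Bl (0.25, SE 0.061), was not called. These probe sets cannot be given to 1 gene.

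H2-Bl, a nonclassical class I gene with 1 probe set of its own, was higher. It read 6.90, 7.02 and 6.95 in control and 7.61, 7.48 and 7.65 in HDAC2 KO, a difference of 0.62 (SE 0.062), or 1.54-fold. The groups did not overlap, and the call held in its 15 alternatives.

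B2m, the gene of the class I light chain, was nearly level. Probe set 1452428_a_at read 13.05, 13.04 and 13.07 in control and 12.96, 12.97 and 12.98 in HDAC2 KO, a difference of -0.078 (SE 0.043). The second, 1449289_a_at, read 13.15, 13.10 and 13.15 against 13.08, 13.00 and 13.10, a difference of -0.075 (SE 0.050). The first did not overlap between groups and the second did, and neither was called. They stood at 94.7% and 94.9% of the control signal, and the SD within a group was between 0.0087 and 0.054.

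The transporter genes were nearly level as well, apart from 1 probe set of Tap1. Tap1 probe set 1416016_at was higher, at 7.14, 7.13 and 7.12 in control and 7.43, 7.50 and 7.32 in HDAC2 KO, a difference of 0.29 (SE 0.058), or 1.22-fold. A second, 1448177_at, read 5.98, 5.95 and 5.82 against 5.84, 5.76 and 5.81, a difference of -0.11 (SE 0.059), and was not called. The groups were apart on the first, which was called, and overlapped on the second. Leaving out any array but HDAC2 KO replicate 3 ended the call, with leave-one-out differences of 0.25 to 0.34. The other Tap1 probe sets, 1420274_at and 1449803_x_at, lay between 3.17 and 3.40 on average, at the bottom of the signal range, and did not separate the groups. Tap2, the partner chain of the transporter, read 8.77, 8.75 and 8.77 in control and 8.73, 8.74 and 8.66 in HDAC2 KO on its only probe set, 1453913_a_at, a difference of -0.048 (SE 0.047). Its HDAC2 KO values were all below the control values, and the difference was about the size of its SE.

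Tapasin and the immunoproteasome subunits were not called on any probe set. Tapbp read 11.52, 11.49 and 11.51 in control and 11.51, 11.47 and 11.52 in HDAC2 KO on 1421812_at, a difference of -0.0053 (SE 0.045). The other Tapbp probe set, 1450378_at, differed by -0.026 (SE 0.054). Psmb8, a catalytic subunit also called LMP7, read 9.61, 9.57 and 9.51 against 9.58, 9.60 and 9.53 on 1422962_a_at, a difference of 0.0082 (SE 0.050). Its arrays of both groups were interleaved, as were those of Psmb9. For Psmb9, the catalytic subunit LMP2, the control arrays gave 9.02, 9.05 and 9.01 and the HDAC2 KO arrays 9.05, 9.06 and 8.99 on 1450696_at, a difference of 0.0083 (SE 0.047). The second Psmb8 probe set, 1444619_x_at, lay low at 4.49 and 4.40 and differed by -0.086 (SE 0.064). Tap1 and Psmb9 lie head to head over the shared upstream window printed above, and their best probe sets differed by 0.29 and 0.0083.

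The spread within groups was compared with that of the array. The median SD over the 26 probe sets was 0.043 in control and 0.076 in HDAC2 KO, against 0.066 and 0.082 over all probe sets and 0.053 and 0.065 over those above the 40th percentile of signal, where 22 of the 26 lie. For H2-D1 it was 0.043 in control and 0.11 in HDAC2 KO, so its probe sets varied more between HDAC2 KO arrays, with a largest SD of 0.29 on 1450170_x_at. The gap between groups was many times this spread for the called H2-D1 probe sets.

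Most of these genes lie together in the MHC on chromosome 17, with B2m apart on chromosome 2. In the RefSeq gene order, the run from Tapbp to H2-Bl holds 196 genes, of which 110 had single-symbol probe sets. H2-K1 is gene 11 of the run, Psmb9, Tap1, Psmb8 and Tap2 are genes 29 to 32, H2-D1 is gene 132 and H2-T23 gene 190. In the run, 35 of 196 probe sets (17.9%) were called, and 22 of 172 (12.8%) when the members were left out, against 4.06% of 34749 single-symbol probe sets outside it. This is a description, since neighbouring genes share chromosome, cell type and, for some, sequence.

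**Figure D3:**
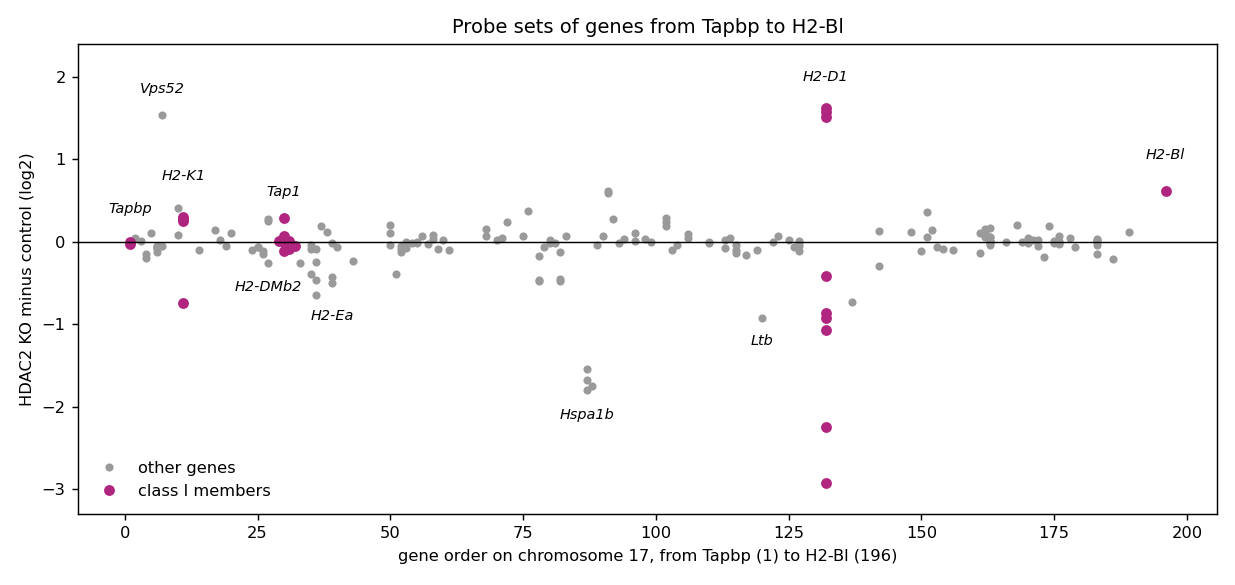
Difference between HDAC2 KO and control (log2) for each single-symbol probe set, by the order of its gene on chromosome 17 from Tapbp (gene 1) to H2-Bl (gene 196); purple points are members. Probe sets of H2-D1 and H2-K1 lie on both sides of 0, those of Psmb9, Psmb8 and Tap2 lie between -0.086 and 0.0083, and Tap1 (gene 30) reaches 0.29.

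Several neighbours that are not class I genes changed too. Of 81 measured genes in a list of MHC neighbours, 5 rose and 5 fell, with a median difference of 0.017 (0.0062 over all genes by their highest-signal probe set, of which 5.09% were called, 2.44% higher and 2.65% lower). The heat shock genes Hspa1a and Hspa1b fell by 1.75 (SE 0.077, limma adjusted p = 3.08e-05) and 1.54 (SE 0.087, limma adjusted p = 0.000112). Ltb, which encodes lymphotoxin beta of lymphocytes, fell by 0.92 (SE 0.054), and the lysosomal sialidase gene Neu1 by 0.45 (SE 0.048), with limma adjusted p of 0.000125 and 0.00249. In the class II list, by the highest-signal probe set of each gene, 1 of 11 genes rose and 2 fell, with a median of -0.087. H2-Aa and H2-Ab1 were not called there, but each was called lower on 1 other probe set. These were 1452431_s_at (-0.64, SE 0.059, limma adjusted p = 0.00124) and 1425477_x_at (-0.40, SE 0.062, limma adjusted p = 0.0147). Their remaining probe sets were not called. The invariant chain gene Cd74 fell by 0.34 (SE 0.049, limma adjusted p = 0.0102), a call lost in 2 of 6 leave-one-out fits (limma adjusted p up to 0.059). H2-Ea, the alpha chain gene of the I-E molecule, which mice of the H2-b haplotype do not transcribe, read 11.10, 11.22 and 11.12 in control and 10.63, 10.73 and 10.57 in HDAC2 KO. It thus had high signal on every array and fell by 0.50 (SE 0.062, limma adjusted p = 0.00541). The rise of H2-DMb2 on its brightest probe set, 0.28 (SE 0.057, limma adjusted p = 0.0419), was lost when any single array was left out, with a limma adjusted p then of 0.083 to 0.12.

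The other class I and class I-like heavy chain genes were called in 4 of 15 cases, all lower. Of the 15 measured, 0 rose and 4 fell, with a median of -0.070. H2-M3, which presents formylated peptides, fell by 0.32 (SE 0.046, limma adjusted p = 0.0106) and was not called in 3 of 6 leave-one-out fits (limma adjusted p up to 0.060). H2-T18 fell by 0.64 (SE 0.13, limma adjusted p = 0.0468), a call lost in 5 of 6 leave-one-out fits (limma adjusted p up to 0.171). The lipid-presenting gene Cd1d1 fell by 0.29 (SE 0.057, limma adjusted p = 0.0349) and H2-Q5 by 0.29 (SE 0.054, limma adjusted p = 0.0281), both calls being lost when any single array was left out (limma adjusted p of 0.0527 to 0.129 for H2-Q5 and 0.0736 to 0.12 for Cd1d1).

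Genes acting before and after the transporter were not called. Of 17 chaperones, trimming enzymes and quality control genes of the endoplasmic reticulum 0 were called, with a median of -0.022, and the smallest p was that of the chaperone gene Hspa5, at -0.18 (SE 0.045, limma adjusted p = 0.0903). Of 15 genes of the constitutive proteasome core and its assembly 0 were called (median 0.040), of 20 activators and regulatory particle subunits 0 (median 0.057) and of 8 cytosolic peptidases 0 (median 0.025). At an unadjusted limma p under 0.05 the counts were 4, 1, 1 and 1, and 3, 1, 1 and 1 genes were called once variances were robust and followed the intensity. Psmb10, the third immunoproteasome catalytic subunit, read 11.08 ± 0.040 (SD, n = 3) in control and 11.16 ± 0.058 in HDAC2 KO (difference 0.082, SE 0.052, limma adjusted p = 0.513), and the interferon-inducible activator subunit gene Psme1 differed by 0.0064 (SE 0.055).

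Regulators of class I transcription were called in 1 of 17 cases. Nlrc5, the transactivator of class I genes, fell from 5.90 ± 0.083 (SD, n = 3) to 5.46 ± 0.049, a difference of -0.44 (SE 0.059, limma adjusted p = 0.00807), and was called in each of its 14 alternative fits. Its signal lay near the 40th percentile, 5.59, above it in control and below it in HDAC2 KO, and Nlrc5 is abundant in lymphocytes. Among 15 receptors and signalling genes of the interferon pathway only Socs3, a feedback inhibitor of cytokine signalling, was called, higher by 0.70 (SE 0.084, limma adjusted p = 0.00459). Interferon-induced genes moved both ways, with 4 of 31 higher and 4 lower and a median of 0.049. Ifit1 rose by 0.67 (SE 0.065, limma adjusted p = 0.0017) and Zbp1 by 0.51 (SE 0.054, limma adjusted p = 0.00271). Ifi27l2a fell by 1.19 (SE 0.046, limma adjusted p = 1.94e-05) and the T cell chemokine gene Cxcl9 by 0.92 (SE 0.13, limma adjusted p = 0.00941).

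Markers of the leukocytes that also carry class I molecules were lower in HDAC2 KO. All 10 general leukocyte markers fell, with a median of -0.73. Their linear signals summed to 7001 to 7258 in control and 4009 to 4215 in HDAC2 KO, and 0 of the 10 lay below the 40th percentile. Among T cell markers 7 of 13 fell and 0 rose (sum 1792 to 1838 against 1179 to 1260, with 1 below the 40th percentile), and among B cell and plasma cell markers 9 of 10 fell and 0 rose (sum 13098 to 13205 against 9166 to 10085). Of 11 macrophage and dendritic cell markers 2 were called lower and 1 higher. Of 9 endothelial markers 2 were called lower, and of 12 markers of fibroblasts and smooth muscle 1 lower and 1 higher. The mean log2 signal of the macrophage list was 7.82 to 7.88 in control and 7.73 to 7.74 in HDAC2 KO. That of the endothelial list was 7.34 to 7.46 and 7.18 to 7.20, and that of the fibroblast and smooth muscle list 11.44 to 11.48 and 11.51 to 11.55. Of 6 adipocyte markers 5 fell and 1 rose, with a median of -1.74. The epithelial markers rose in 2 of 14 cases and fell in 0 (sum 157618 to 158586 against 166781 to 170598). In such bulk samples fewer leukocytes and less RNA per leukocyte cannot be told apart, and the part of the leukocyte markers in the class I values was not tested. On the same arrays, B2m was at 94.7% and 94.9% of control, Psmb8, Psmb9 and Tapbp were level, and H2-D1 probe sets lay at 13.2% to 308% of control. Of the genes that read class I molecules on T and NK cells, 2 of 13 fell: Cd8b1, a chain of the CD8 coreceptor, by 1.40 (SE 0.19, limma adjusted p = 0.00762) and the NK receptor gene Klrd1 by 0.47 (SE 0.065, limma adjusted p = 0.00912). Of these 13 genes, 10 lay below the 40th percentile.

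**Figure D4:**
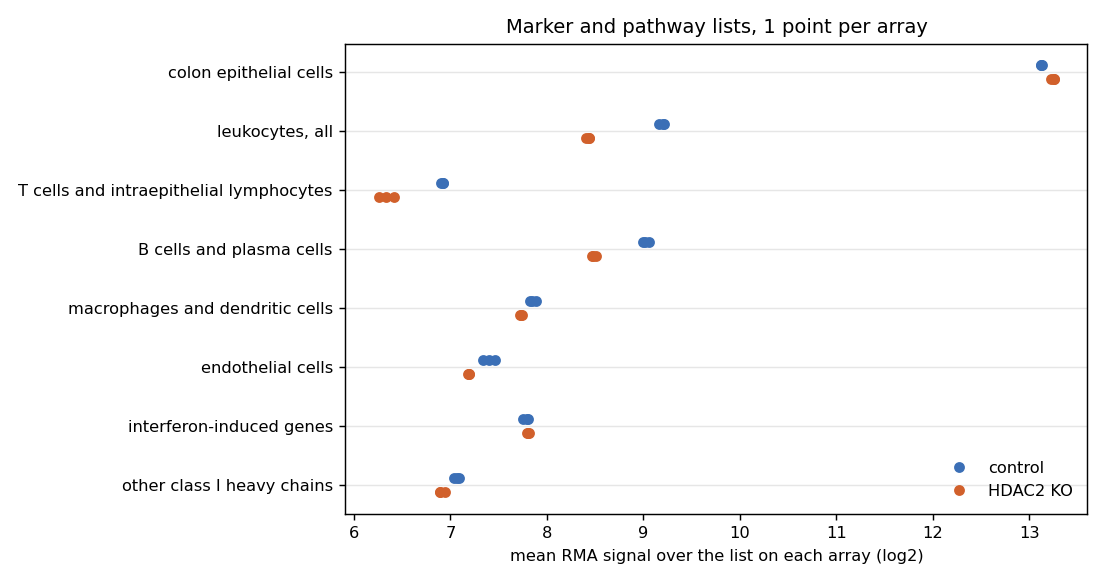
Mean log2 signal over each gene list on every array, 1 point per array (blue control, orange HDAC2 KO). The general leukocyte list lies at 9.16 to 9.22 in control and 8.40 to 8.44 in HDAC2 KO, and the epithelial list at 13.12 to 13.13 and 13.22 to 13.25.

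The centred signals of the brightest probe sets of the light chain, loading and immunoproteasome genes were averaged over the 6 genes for each array. They did not share one course: Tap1 differed by 0.29 and the others by -0.075 to 0.0083, so Tap1 weighs most in the difference of this average between groups. Of 13522 other genes above the 40th percentile, those most like the average were Rhbdf2 (Pearson r = 0.991 over 6 arrays), Wdr1 (0.990), Fancl (0.990), Ttc6 (0.988) and Cutal (0.988). Their own differences between groups ran from 0.054 to 0.098 and none was called. These coefficients describe 6 arrays that share their normalization, and the best 5 of so many genes are close by selection.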

How the data were processed

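The authors deposited RMA values for 6 one-colour Affymetrix arrays, per the submitters' processing notes, with no version given. RMA corrects background, quantile-normalizes and summarises probes per probe set. The deposited values, 2.39 to 14.6 with array medians of 6.17 to 6.21, were taken as log2. Quantile normalization hides a change in total RNA, and low signals can understate differences. The platform annotation (2016) named 34945 probe sets with 1 symbol, 932 several and 9160 none. RefSeq on GRCm38.p6 gave gene order and promoters.

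All 45037 non-control probe sets were fitted with limma 3.58.1 in R 4.3.3 (lmFit, eBayes, group as the sole term), without a filter, and called at a Benjamini-Hochberg adjusted p under 0.05. Simulated data were used to test this step. Lists count each gene once, by its highest-signal probe set. Depth does not apply to arrays: their number, 3 per group, limits the precision. Members and lists were chosen with earlier results of these data known. Named are all member probe sets, up to 4 genes per pathway list with the smallest p, Hdac2, and the 5 genes most like the loading genes. Further fits changed the filter, normalization, variance model, weights, block, arrays, probe set kinds and threshold.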

Additional observations from a re-analysis of the deposited data

How the results depend on the processing

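No named probe set reversed its direction in any alternative in which it was called. Of 368 values of member probe sets under other settings, 339 kept their side of the threshold, 20 lost the call and 9 gained it. The count of all calls, 1712 (773 higher and 939 lower), was 671 (274 and 397) at an adjusted p under 0.01, 3354 (1662 and 1692) once variances were robust and followed the intensity, and 2721 above the 60th percentile of signal (1435 higher), with 1228 higher above the 40th. Leaving out 1 array gave 779 to 1466 calls (334 to 677 higher, 445 to 789 lower), the fewest without control replicate 1.

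Member calls, 7 higher and 6 lower, were 4 higher at 0.01 and 4 to 6 higher and 6 to 7 lower without 1 array. Without x_at and s_at probe sets they were 2 higher and 2 lower, fewer members then being tested. Genes with opposed probe sets, 4, numbered 1 at 0.01, 7 with array weights, 2 with centring on the median, 10 and 17 with the filters at the 40th and 60th percentile, 7 with further quantile normalization, 18 with the trend, 1 without x_at and s_at probe sets, and 1 to 2 without 1 array. Where the cause is not given, the cause was not tested.

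With the replicate number as a block, 929 probe sets were called (380 higher and 549 lower), 4 members were higher, and 1 gene was opposed. Deviations of same-numbered arrays correlated with r between -0.0071 and 0.11, and of other arrays between -0.19 and 0.15. With 3 arrays per group these values cannot show whether same-numbered samples were paired. Arrays did not all correlate best with their own number. Signal near background limits 4 of the 26 member probe sets, those below the 40th percentile.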

Other observations

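Probe sets of 2 genes near the class I members stood out and were chosen after their values were seen. Vps52 is in the list of MHC neighbours by its other probe set, and D17H6S56E-5 is in no list. Vps52, gene 7 of the run from Tapbp, encodes a subunit of a tethering complex for vesicles. Its probe set 1447894_x_at rose from 5.16 ± 0.13 (SD, n = 3) to 6.70 ± 0.084, a difference of 1.54 (SE 0.080, limma adjusted p = 6.84e-05). Its other probe set, 1437078_at, read 6.94 ± 0.049 and 6.89 ± 0.017, a difference of -0.050 (SE 0.048), and was not called. D17H6S56E-5, gene 91 of the run, rose on both of its probe sets, by 0.59 (SE 0.046) and 0.62 (SE 0.049), with limma adjusted p of 0.000557 and 0.000605.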
